A study of Mus musculus with 90 samples.

Results

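The genes described here mark Kupffer cells and other macrophages of the liver. They were chosen by symbol and are Clec4f, Cd5l, Marco, Adgre1, Vsig4, Csf1r, Cd68, C1qa, C1qb and C1qc, which are 10 of the 27654 genes in the deposited tables. Kupffer cells are the resident macrophages of the liver, sit in its sinusoids, and take up particles, bacteria and worn red cells from portal blood. They live on signals through the receptor encoded by Csf1r, and tissue macrophages like them are a main source of C1q, the protein that starts the classical complement pathway. Macrophages carry the glucocorticoid receptor (GR, encoded by Nr3c1) and respond to glucocorticoids.

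Whole livers of C57BL/6J mice on chow were profiled by RNA sequencing in 90 libraries, all from male mice. In the time series, WT mice were GRfl/fl and GRLKO mice were GRfl/fl x Alb-Cre, with Cre driven by the albumin promoter, so that GR was deleted in hepatocytes while Kupffer cells kept it. Mice of the series were on control diet, which per the paper was free feeding with food at night only in the last week, or received 40% fewer calories (caloric restriction). Their livers were taken at ZT0, ZT4, ZT8, ZT12, ZT16 and ZT20, where ZT0 is lights on. The separate diet experiment and the corticosterone (CORT) experiment used WT mice at ZT12.

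The time series held 22 WT and 20 GRLKO libraries on control diet and 18 of each genotype on caloric restriction, with 3 or 4 mice in each group. The diet experiment held 3 livers on caloric restriction and 3 controls, whose titles say AL and whose treatment label says night restricted feeding, and the paper describes free and then night feeding for controls. The CORT experiment held 3 livers of mice given corticosterone and 3 of control mice, which are labelled as night restricted feeding and per the paper were injected with vehicle (ethanol in oil). Total counts per library ran from 11408194 to 17089004 in WT on control diet, from 10057544 to 16066590 in GRLKO on control diet, from 14235473 to 20788575 in WT on caloric restriction and from 15712829 to 20293389 in GRLKO on caloric restriction. They ran from 36442195 to 37656056 in the controls and from 36897020 to 39492146 in the restricted mice of the diet experiment. In the CORT experiment they ran from 13763568 to 15114185 in controls and from 13739631 to 16077943 after CORT. In the time series each diet was its own set of libraries, so that diet and library set cannot be told apart there. Levels below are CPM (each count set against the library's total) after TMM scaling within each deposited table, and levels from different tables are only set side by side, since the tables were normalized separately.

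Nr3c1 was read first as a check of the labels. On control diet its lowest, median and highest CPM were 72.9, 87.2 and 118 in WT and 16.3, 21.6 and 29.0 in GRLKO. On caloric restriction they were 70.7, 93.9 and 113 in WT and 21.6, 24.9 and 31.8 in GRLKO. Each GRLKO library lay below each WT library of its diet. The Nr3c1 transcripts that remained in GRLKO livers were not assigned to a cell type. In the WT experiments at ZT12 Nr3c1 ran from 88.7 to 95.7 CPM in the diet controls, from 84.3 to 88.4 on caloric restriction, from 69.4 to 77.4 in the CORT controls and from 61.7 to 83.9 after CORT.

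In the tables the genes carry the Ensembl IDs ENSMUSG00000014542 (Clec4f), ENSMUSG00000015854 (Cd5l), ENSMUSG00000026390 (Marco), ENSMUSG00000004730 (Adgre1), ENSMUSG00000044206 (Vsig4), ENSMUSG00000024621 (Csf1r), ENSMUSG00000018774 (Cd68), ENSMUSG00000036887 (C1qa), ENSMUSG00000036905 (C1qb) and ENSMUSG00000036896 (C1qc). All 10 genes were detected in each of the 90 libraries. Estimated counts per library ran from 195 to 1827 for Clec4f and from 4 to 736 for Marco, so that Marco rests on few counts in some groups. Per kilobase of exon, the mean level over the WT control-diet libraries was 17.5 CPM per kb for C1qa, 15.3 for Clec4f, 14.7 for C1qb, 14.5 for Cd5l and 9.32 for C1qc. These are the 3 chains of C1q, a C-type lectin that in mice marks Kupffer cells, and the secreted protein AIM that Cd5l encodes. Vsig4, the complement receptor CRIg, stood at 7.35 CPM per kb, and Csf1r at 3.63. The lysosomal protein gene Cd68 followed at 2.67 CPM per kb, Adgre1, which encodes the F4/80 antigen, at 1.69 and the scavenger receptor gene Marco at 1.55. Among WT libraries on caloric restriction, Cd5l stood highest at 19.0 CPM per kb and Adgre1 lowest at 2.10, with Marco at 4.36. Neighbours in these orders such as Clec4f, C1qb and Cd5l lay closer to each other than their spread over libraries.

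The genes varied together from liver to liver. After the mean of each diet, genotype and time point was subtracted, the correlation of a gene with the mean of the other 9 over the 78 time series libraries was 0.96 for C1qc, 0.95 for C1qb, 0.94 for Cd5l, 0.93 for C1qa, 0.93 for Csf1r, 0.91 for Adgre1, 0.90 for Vsig4, 0.87 for Clec4f and 0.84 for Cd68. Marco stood apart with r = 0.60, and its pair with Clec4f had the lowest r of all pairs, 0.39. Points of these correlations are livers that share depth and dissection, and the values are descriptions without a test. Outside the list, the genes most like the mean of the members were Sdc3 (r = 0.90, rho = 0.885), Ctss (0.89), Cfp (0.89), Cybb (0.88), Pirb (0.88), Laptm5 (0.86), Ptprc (0.85), Lyz2 (0.85), Fcgr4 (0.85) and Itgal (0.85). For Sdc3, r was 0.942 within caloric restriction, 0.855 within control diet and 0.876 without the 2 farthest libraries. The median r was 0.773 for 15 genes shared by myeloid cells, 0.739 for 4 MHC class II genes and 0.625 for 12 further Kupffer cell identity genes. It was 0.268 for 8 stellate cell genes, 0.204 for 8 sinusoidal endothelial genes, 0.044 for 5 erythrocyte genes and -0.0562 for 8 hepatocyte genes.

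The first question was how the genes moved over the day. In WT livers on control diet the summed level of the 10 genes was 235, 173 and 308 CPM at ZT0, and 106, 88.0, 74.2 and 110 CPM at ZT12. Each ZT12 liver lay below each ZT0 liver. In bulk liver, fewer Kupffer cells and less RNA per cell cannot be told apart, and this holds for each level below. Among control-diet WT libraries Clec4f had a lowest, median and highest level of 15.4, 38.4 and 63.5 CPM. The mean Clec4f level was 50.6 ± 9.30 CPM (SD, n = 3) at ZT4 and 23.1 ± 5.24 CPM (SD, n = 4) at ZT12. Marco moved over a wider range, from 0.304 to 18.4 CPM. Its mean was 9.91 ± 7.94 CPM (SD, n = 3) at ZT0 and 0.493 ± 0.191 CPM (SD, n = 4) at ZT16, which is a ratio of 20.1, and a single ZT0 liver held the level of 18.4 CPM while the others held 2.62 and 8.76.

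A 24 h rhythm was tested with JTK_CYCLE, using its exact null distribution and Benjamini-Hochberg adjustment over all genes. It passed for 10 of 10 genes in WT on control diet, with adjusted p from 0.000227 for Adgre1 to 0.00796 for Marco, where 27.3% of all genes passed. The fitted peak was ZT0 for 9 of them and ZT4 for Cd5l, and the lowest mean fell at ZT12 for 8 and at ZT16 for 2. The ratio of highest to lowest mean had a median of 2.73 over the 10 genes. Of all rhythmic genes in that group 36.9% peaked at ZT0 or ZT4. In GRLKO on control diet 7 of 10 genes passed against 22.7% of all genes, with Marco (adjusted p 0.257), Cd68 (0.105) and C1qc (0.0877) above the threshold of JTK_CYCLE. Without replicate 3 of each time point 6 genes passed in WT, and in GRLKO the count was 0 without replicate 1, 1 without replicate 2, 0 without replicate 3 and 5 without replicate 4, where each setting leaves out that replicate number at every time point that has it. In WT on control diet the rhythm also passed for 10 of 15 shared myeloid genes, 6 of 12 Kupffer cell identity genes, 7 of 8 sinusoidal endothelial genes, 6 of 8 stellate cell genes and 4 of 8 hepatocyte genes. The part of these cells in the result was not tested.

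On caloric restriction the same test passed for 0 of 10 genes in WT, against 21.7% of all genes, and 0 had an unadjusted p under 0.05. In GRLKO on caloric restriction it passed for 0 of 10, against 19.8% of all genes, and 1 had an unadjusted p under 0.05. An F test of time point as a factor in edgeR, which needs no shape of the daily curve, passed for 8 of 10 genes in WT on caloric restriction (all but Adgre1 and Cd68) against 64.3% of all genes, and for 0 of 10 in GRLKO against 60.5%. In GRLKO 0 genes had an unadjusted p under 0.05 in that F test, and the lowest adjusted p of edgeR was 0.165. On control diet the F test passed for 10 of 10 genes in WT against 50% of all genes, and for 9 of 10 in GRLKO against 42%. A p that misses the threshold does not show that values did not differ. In WT on caloric restriction all 10 genes had their lowest mean at ZT12, and the ratio of highest to lowest mean had a median of 3.33, against 1.66 in GRLKO. Single livers stood high there: the summed level was 419 CPM in WT replicate 2 at ZT8, where the others held 180 and 251, and 351 CPM in WT replicate 1 at ZT4, where the others held 173 and 168.

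**Figure D1:**
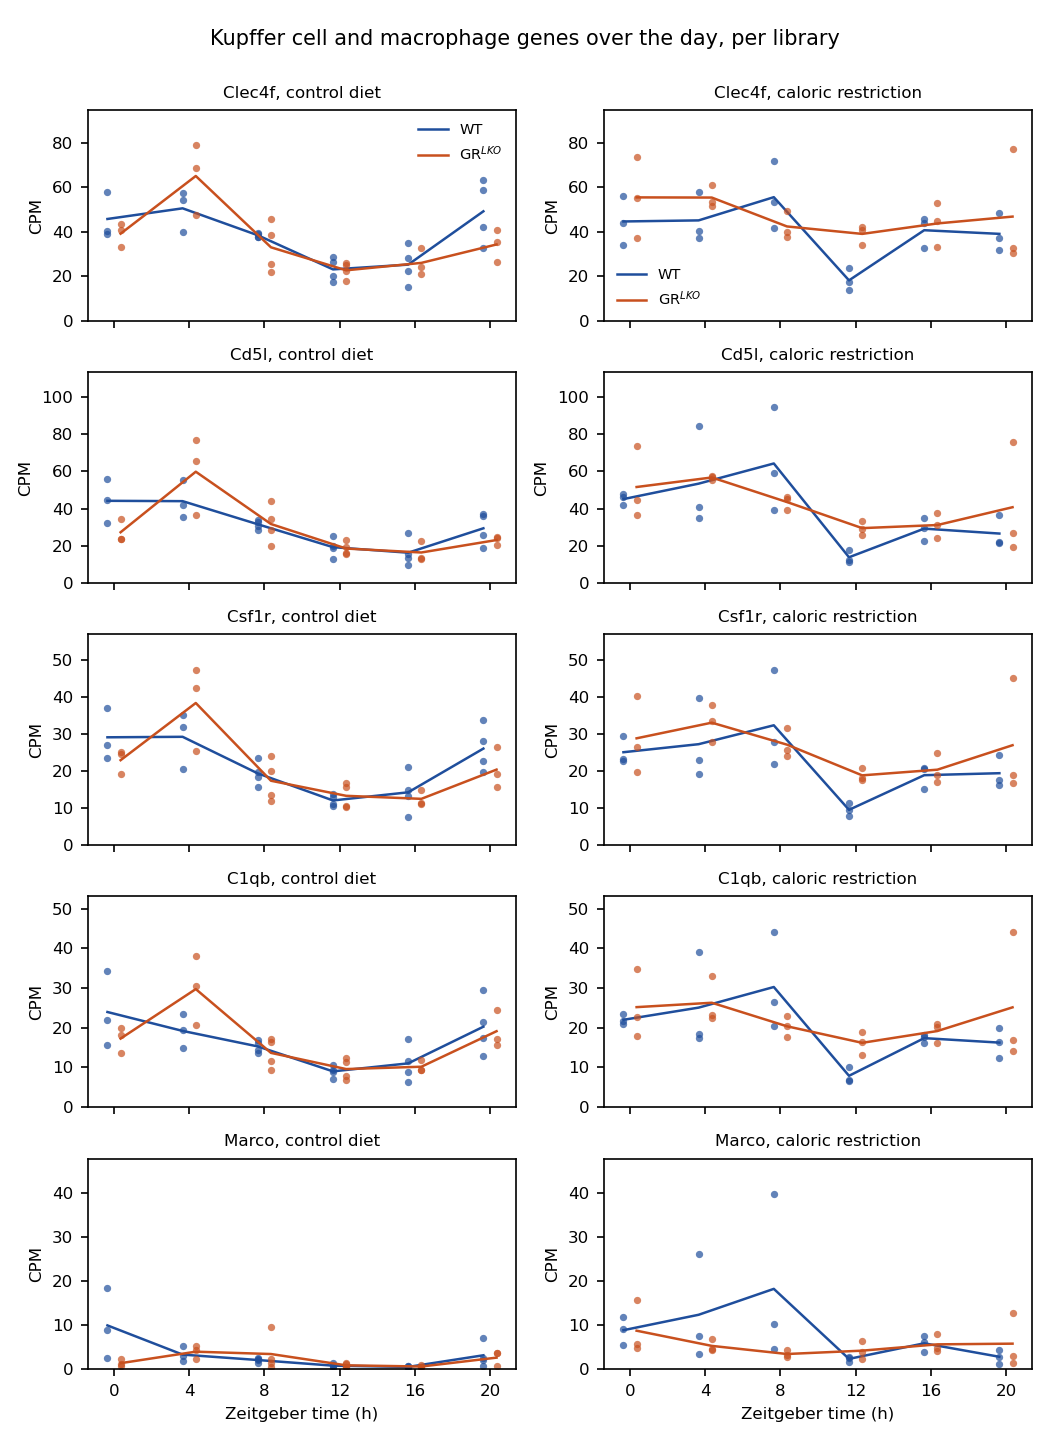
Level of Clec4f, Cd5l, Csf1r, C1qb and Marco over the day in CPM, with each point a liver and each line through the means of a genotype, for control diet (left) and caloric restriction (right). WT livers on caloric restriction stood at a mean Clec4f level of 18.2 CPM at ZT12, against 39.1 CPM in GRLKO.

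Whether the daily pattern differed between the diets was tested by the interaction of diet and time point within a genotype, a test added after the rhythm calls were seen. In this test a constant shift between the 2 sets of libraries drops out. By the quasi-likelihood F test of edgeR (p adjusted by Benjamini-Hochberg) it passed in WT for 5 of 10 genes, against 40.1% of all genes, a share near that of the members. They were Marco (adjusted p 0.0105), Vsig4 (0.0108), C1qc (0.0308), Cd68 (0.0371) and Cd5l (0.0478). At an unadjusted p under 0.05 were 9 of the 10 members and 6478 of the 12971 genes tested. In GRLKO it passed for 0 of 10 genes against 27.6% of all genes, with 2 at an unadjusted p under 0.05 and no other tool run. Whether the genotypes differed in this interaction was not tested.

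The comparison of GRLKO with WT at ZT12 on caloric restriction asks what the loss of GR in hepatocytes does at the end of the fast, when glucocorticoids are high. The genes of this list stood higher in GRLKO livers than in WT livers at that hour. The summed level of the 10 genes was 62.5, 99.7 and 71.6 CPM in WT and 167, 137 and 177 CPM in GRLKO, without overlap. By the quasi-likelihood F test of edgeR (p adjusted by Benjamini-Hochberg) 7 of 10 genes passed, all higher, where 15.3% of all genes passed and 7.42% passed as higher. The libraries of the genotypes did not overlap for 9 of 10 genes (all but Marco, with Adgre1 parted only past the digits printed below), against 37% of all genes. The median log2 fold change of the 10 genes was 1.02.

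Clec4f, the lectin of Kupffer cells, was at 13.6, 23.6 and 17.4 CPM in WT and at 41.0, 34.3 and 42 CPM in GRLKO. Each GRLKO liver lay above each WT liver, and edgeR gave a log2 fold change of 1.11 (SE 0.19, adjusted p 0.0101). Cd5l, whose secreted product binds IgM and is made by macrophages, was at 11.2, 18.0 and 12.2 CPM in WT and at 33.5, 25.9 and 29.0 CPM in GRLKO. Its groups did not overlap either, and its log2 fold change was 1.10 (SE 0.19, adjusted p 0.00966 by edgeR). Csf1r was at 7.75, 11.4 and 9.31 CPM in WT and at 17.6, 18.0 and 20.7 CPM in GRLKO, with the 3 GRLKO livers close together and far above WT. This receptor tyrosine kinase had the lowest adjusted p of the list in edgeR, 0.00732, at a log2 fold change of 0.99 (SE 0.15). Vsig4, which binds C3 fragments on particles, was at 5.81, 8.81 and 5.89 CPM in WT and at 15.3, 10.6 and 12.4 CPM in GRLKO. The highest WT liver came near the lowest GRLKO liver, and the log2 fold change was 0.91 (SE 0.21, adjusted p 0.0286 by edgeR).

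The 3 chains of C1q moved by like amounts. C1qa was at 5.25, 8.80 and 6.68 CPM in WT and at 12.9, 12.2 and 16 CPM in GRLKO. C1qc was at 6.02, 8.94 and 6.79 CPM in WT and at 15.6, 12.4 and 17.9 CPM in GRLKO. For both, and for C1qb, WT replicate 2 was the highest of its group and still lay below all 3 GRLKO livers. The log2 fold changes were 0.99 for C1qa, 1.05 for C1qb and 1.08 for C1qc, with adjusted p of 0.0197, 0.0175 and 0.0119 by edgeR. Marco, Adgre1 and Cd68 missed the threshold of edgeR, with adjusted p of 0.185, 0.0877 and 0.0937. Marco was at 2.52, 2.79 and 1.63 CPM in WT and at 3.84, 2.40 and 6.31 CPM in GRLKO. Its groups overlapped, and those of Adgre1 nearly met, since the highest WT liver and the lowest GRLKO liver were both at 4.05 CPM when rounded.

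**Figure D2:**
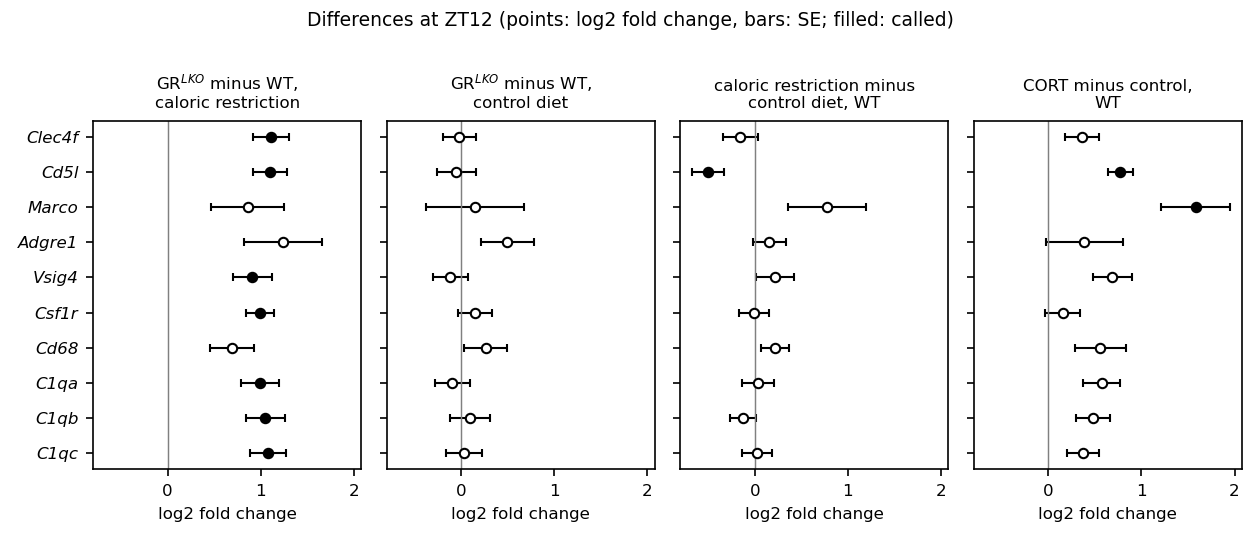
Log2 fold change of each gene at ZT12 with its standard error (bars), for 4 comparisons, with filled points for genes that passed the test. On caloric restriction the 10 genes sat between 0.69 (Cd68) and 1.24 (Adgre1).

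The count of 7 moved with single livers. It was 4 without WT replicate 3, 4 without GRLKO replicate 1 and 4 without GRLKO replicate 3, in each case Clec4f, Cd5l, Csf1r and C1qc. It was 5 without WT replicate 1 and 7 without WT replicate 2 or GRLKO replicate 2. WT replicate 3 at ZT12 on caloric restriction held transcripts of exocrine pancreas: the summed level of 6 pancreas genes was 691 CPM there, and 0.121 and 0.682 CPM in the other WT livers. A second library, WT on control diet at ZT16, replicate 2, held 350 CPM, while the third highest of the 90 libraries held 2.35. DESeq2 passed 8 of the 10 genes, and edgeR with a replicate block passed 3 (Clec4f, Cd5l and Csf1r). Scaling by total counts shifted the median of all genes by 0.156 on the log2 scale, and all 10 members stayed above 0 under it, 8 of them past the threshold.

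Other markers were read in the same comparison. Of 12 further Kupffer cell identity genes 4 rose: Folr2 by 1.70, Siglec1 by 1.21 and Id3 by 1.28 on the log2 scale, and Cd163 with an adjusted p of 0.0139 by edgeR. That list summed to 409, 317 and 373 CPM in WT and 413, 377 and 426 CPM in GRLKO, with the iron exporter gene Slc40a1 as its most abundant gene and no gene near 0. Of 14 tested shared myeloid genes 0 passed as higher by edgeR. An unadjusted p under 0.05 was found for 10, with 9 of them higher and the remaining gene lower. The median log2 fold change was 0.80. Of 4 tested MHC class II genes 0 passed by edgeR, with 2 at an unadjusted p under 0.05. Of 6 scavenger receptor genes 2 rose (Cd36 by 2.07 and Colec12 by 0.48) and Scarb1 fell by 0.76, with 6 at an unadjusted p under 0.05, 5 of them higher. Myeloid genes outside the list thus lay mostly higher as well, and no test set the members apart from them. Among sinusoidal endothelial genes 2 of 8 rose (Lyve1 by 1.06 and Oit3 by 0.36), with sums of 317, 281 and 349 CPM in WT and 376, 335 and 374 CPM in GRLKO. Stellate cell genes passed for 0 of 8 by edgeR, with 0 at an unadjusted p under 0.05 and sums of 259, 313 and 291 CPM in WT and 279, 235 and 266 CPM in GRLKO. Hepatocyte genes fell for 5 of 8, among them Alb by 0.41 and Apoa1 by 1.32, with sums of 192920, 186480 and 197150 CPM in WT and 148000, 164360 and 142080 CPM in GRLKO. Their part in the result was not tested. Of 6 genes that glucocorticoids induce in many tissues 4 fell: Zbtb16 by 3.62, Fkbp5 by 2.84, Tsc22d3 by 1.86 and Per1 by 1.22. Of the ligands of the Csf1r receptor and niche factors 0 of 5 passed by edgeR (1 at an unadjusted p under 0.05), and of the complement partners of C1q 0 of 8 (2 at an unadjusted p under 0.05). Blood cell genes were few: monocyte genes passed for 0 of 3 tested and dendritic cell genes for 0 of 2, with 0 of either at an unadjusted p under 0.05, while Csf3r of neutrophils (1.37) and Ighm of B cells (1.76) passed as the 1 tested gene of their lists. The neutrophil markers Ly6g, Retnlg and Mmp8 had means near 0.

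**Figure D3:**
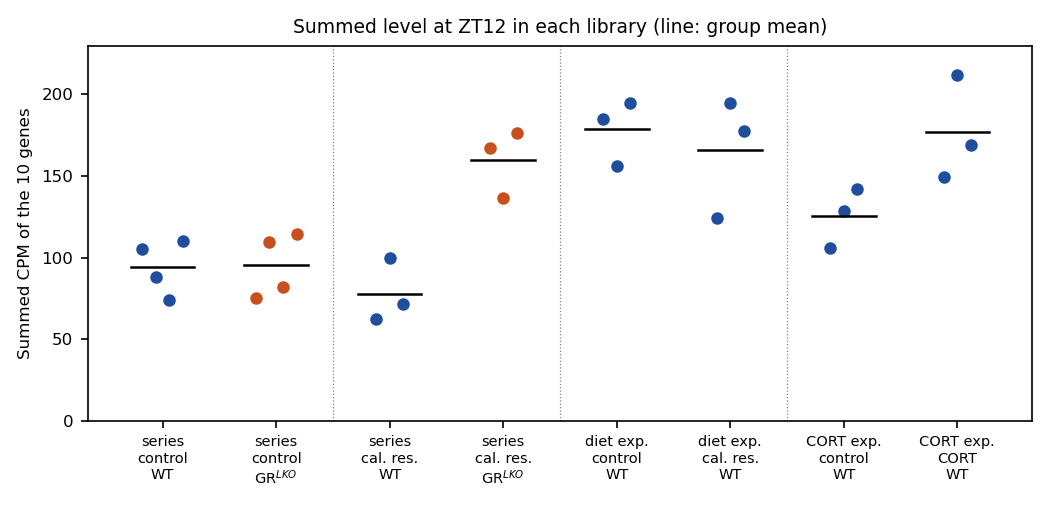
Summed level of the 10 genes in CPM in each liver taken at ZT12 (points), with lines at the group means, by experiment, diet, genotype and treatment. WT livers on caloric restriction in the time series sat between 62.5 and 99.7 CPM, and those of the diet experiment between 125 and 195 CPM.

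The distance between the genotypes at ZT12 came with low WT levels at that hour. In WT on caloric restriction, all 3 ZT12 livers lay below all 15 livers of the other time points for 8 of 10 genes (all but Marco and Cd68). Among all genes with a mean of at least 1 CPM in these livers, which all 10 members had, it held for 6.76%. In GRLKO on caloric restriction it held for 0 of 10 members and 5% of all such genes. On control diet it held for 0 of 10 members in either genotype, against 2.19% of all such genes in WT and 0.795% in GRLKO. These counts compare levels and are not a test. For Clec4f the highest ZT12 liver of WT stood at 23.6 CPM, and the others ran from 31.8 to 71.9 CPM with a median of 43.8. The diet experiment has no other hours to set beside ZT12. Its mean Clec4f level in WT was 38.4 ± 9.10 CPM (SD, n = 3) on caloric restriction and 42.8 ± 6.14 CPM (SD, n = 3) in controls. In the time series the WT means at ZT12 were 18.2 ± 5.03 CPM (SD, n = 3) on caloric restriction and 23.1 ± 5.24 CPM (SD, n = 4) on control diet. In both experiments the diets lay within their spread of each other. These tables were normalized separately, and the difference between the experiments was not tested.

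At the other time points of caloric restriction edgeR passed 0 of 10 genes. The share of all genes that passed was 0.502% at ZT0, 0.69% at ZT4, 2.55% at ZT8, 4.54% at ZT16 and 1.47% at ZT20. An unadjusted p under 0.05 was found for 0 genes at ZT0, ZT4, ZT16 and ZT20 and for 1 at ZT8, and DESeq2 passed 0 at each of them. Median log2 fold changes were 0.20, 0.10, -0.45, 0.11 and 0.66 in that order. At ZT8 all 10 genes were lower in GRLKO, and Marco had a log2 fold change of -2.41 (SE 0.75) with an adjusted p of 0.161 by edgeR and no overlap between the groups. At ZT20 all 10 were higher, but GRLKO replicate 1 held a summed level of 390 CPM there while the others held 137 and 138. Tests of genotype by time point passed 0 of 10 genes on caloric restriction (5.34% of all genes; 3 members at an unadjusted p under 0.05), so that a difference between ZT12 and the other hours was not shown by edgeR.

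On control diet edgeR passed 0 of 10 genes at ZT0, ZT4, ZT8, ZT12 and ZT20, and 0 of the 9 that could be tested at ZT16, where Marco had too few counts. The share of all genes that passed was 0.536% at ZT0, 0.195% at ZT4, 1.43% at ZT8, 2.08% at ZT12, 1.98% at ZT16 and 0.42% at ZT20. At ZT0 4 genes had an unadjusted p under 0.05, at ZT4 2 did, and at the other hours 0. Marco at ZT0 was at 18.4, 2.62 and 8.76 CPM in WT and at 1.16, 0.595 and 2.27 CPM in GRLKO. These groups did not overlap, and the log2 fold change was -2.87 (SE 0.75, adjusted p 0.157 by edgeR), while DESeq2 passed Marco as its 1 gene at that hour and 0 genes at the others. Median log2 fold changes of the members were -0.54 at ZT0, 0.39 at ZT4, -0.10 at ZT8, 0.06 at ZT12, -0.01 at ZT16 and -0.14 at ZT20. All 10 genes were lower in GRLKO at ZT0 and all 10 higher at ZT4. Besides Marco, the groups of Vsig4 did not overlap at ZT0, against 22.5% of all genes without overlap, and at the other hours of control diet the groups overlapped for each tested member. The summed level at ZT12 was 106, 88.0, 74.2 and 110 CPM in WT and 75.0, 110, 82.0 and 115 CPM in GRLKO, which overlap. Genotype by time point passed 0 of 10 genes on control diet by edgeR, against 0.6% of all genes, with 1 at an unadjusted p under 0.05, and limma passed 0 on either diet.

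Over all time points together edgeR passed 0 of 10 genes on caloric restriction, where 30.6% of all genes passed, so that the list stood under the background there. DESeq2 also passed 0, and 3 genes had an unadjusted p under 0.05. The log2 fold change of GRLKO minus WT was above 0 for 9 of 10 genes, with a median of 0.26 and Marco at -0.32. With each hour left out in turn, 4 genes passed without ZT8 (Clec4f, Adgre1, Vsig4 and Csf1r), where 3402 of 12681 genes passed, and 0 passed without any of the other 5 hours. On control diet 0 of 10 passed by edgeR against 18.2% of all genes, 0 by DESeq2 and 0 at an unadjusted p under 0.05, with a median of -0.07. Over the day, genotype by diet passed 0 of 10 genes by edgeR, against 1.89% of all genes. DESeq2 passed 0 as well, 3 genes had an unadjusted p under 0.05, and the median difference was 0.26 on the log2 scale. For Vsig4 it was 0.49 (SE 0.19, adjusted p 0.192 by edgeR).

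The diet experiment asks what caloric restriction does to WT livers at ZT12. It passed 47.1% of all genes and 1 of 10 members, a share under the background. Cd5l was at 41.5, 35.5 and 42.9 CPM in controls and at 21.3, 34.9 and 28.5 CPM on caloric restriction. The groups came close but did not overlap, and Cd5l fell by 0.50 on the log2 scale (SE 0.17, adjusted p 0.0481 by the quasi-likelihood F test of edgeR (p adjusted by Benjamini-Hochberg)). Cd5l was the 1 member of 10 without overlap, against 59% of all genes. Marco was at 1.70, 1.73 and 2.40 CPM in controls and at 1.39, 4.73 and 3.87 CPM on caloric restriction. Its groups overlapped, with a log2 fold change of 0.78 (SE 0.42, adjusted p 0.165 by edgeR). The other 8 genes ran from -0.15 (Clec4f) to 0.22 (Vsig4), and C1qa and C1qc, at 0.04 and 0.03, turned negative under scaling by total counts, which shifted the median of all genes by -0.122. The count was 2 (Marco and Vsig4) without caloric restriction replicate 1, and 0 without caloric restriction replicate 3 or any one of control replicates 1, 2 and 3.

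Related genes were read in the same comparison, and no test set them against the members. Of the 12 Kupffer cell identity genes 5 rose (Cd163 by 1.21, Clec1b by 0.86, Spic by 0.84, Mrc1 by 0.64 and Id3 by 0.63) and Folr2 fell by 0.99. Among shared myeloid genes Fcgr3 rose by 0.73 and Cd14 by 0.72, and Mpeg1 fell by 0.84 and Aif1 by 0.75. All 5 tested MHC class II genes fell, with Cd74, the most abundant, down to a log2 fold change of -0.50. Among ligands and niche factors Csf1, which encodes a ligand of the Csf1r receptor, fell by 0.93, and Il34, which encodes its other ligand, rose by 1.25. Of 8 complement partners of C1q 2 rose, with C3 at 0.97, and 4 fell, with C2 at -0.71. Sinusoidal endothelial genes rose for 6 of 8, hepatocyte genes for 5 of 8 and glucocorticoid induced genes for 6 of 6, and their part in the result was not tested.

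The CORT experiment asks what added corticosterone does to WT livers without a lack of food. Of the members 2 of 10 passed, both higher, where 8.11% of all genes passed and 4.47% passed as higher. Cd5l was at 15.0, 20.7 and 18.2 CPM in controls and at 29.4, 32.9 and 29.9 CPM after CORT. The groups lay well apart, at a log2 fold change of 0.77 (SE 0.13, adjusted p 0.0185 by the quasi-likelihood F test of edgeR (p adjusted by Benjamini-Hochberg)). Marco was at 1.44, 2.90 and 1.24 CPM in controls and at 5.76, 6.76 and 4.36 CPM after CORT. It did not overlap either, at a log2 fold change of 1.58 (SE 0.37, adjusted p 0.0447 by edgeR). The fold change was above 0 for all 10 genes, also under scaling by total counts, with a median of 0.52. Without overlap were 4 of 10 genes (Cd5l, Marco, Vsig4 and C1qb), against 32.9% of all genes, which is near the members' share. Vsig4 had a log2 fold change of 0.69 (SE 0.21, adjusted p 0.0889 by edgeR).

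The count of 2 after CORT was 0 without CORT replicate 1, CORT replicate 3 or control replicate 3, and 1 (Cd5l) without CORT replicate 2 or control replicate 1. Summed over the 10 genes the level was 106, 129 and 142 CPM in controls and 149, 212 and 169 CPM after CORT. These groups did not overlap, although the highest control came near the lowest treated liver. Of the Kupffer cell identity genes Slc40a1 rose by 0.65 and Id3 fell by 2.69. Complement partners passed for 2 of 8 (C4b at 0.90 and Serping1 at 0.48), endothelial genes fell for 2 of 8 (Kdr by 0.62 and Fcgr2b by 0.67), and glucocorticoid induced genes rose for 6 of 6. Hnf4a of hepatocytes rose by 0.84, Plac8 of monocytes by 1.33 and Cd9 of lipid associated macrophages by 0.61, while Lrat of stellate cells fell by 1.34 and Sox9 of cholangiocytes by 1.16. All 5 tested erythrocyte genes were lower, from a log2 fold change of -0.57 (Alas2) to -0.95 (Hbb-bt), each at an unadjusted p under 0.05 and none past the threshold of edgeR. The part of these cells in the result was not tested.

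The genes for the 3 chains of C1q lie next to each other on the minus strand, C1qb at chr4:136880129-136886187, C1qc at chr4:136889804-136893065 and C1qa at chr4:136895917-136898803 (GRCm38). Clec4f lies at chr6:83644542-83656187, Cd5l at chr3:87357881-87371073, Marco at chr1:120474538-120505024, Adgre1 at chr17:57358691-57483527, Vsig4 at chrX:96247203-96293438 and Cd68 at chr11:69664213-69666153. Since the members moved together, the 250 bases before the start of each gene were read from RefSeq promoters (GRCm38.p6), where 7 of 10 members had an entry. By the GENCODE exons, 151 bases of the C1qc window and 71 bases of the Clec4f window lie in exons, so that matches named for these genes may lie within the transcript. The motifs searched on both strands, with the share of all 32851 promoters that hold them, were AGGAAGT (7.69%), TGCTGA (16.1%), AGAACA (16.1%), TGACTCA (4.46%), CACGTG (6.02%), GAGGAAGT (2.44%), GGAAGTG (8.55%), TGCTGAC (3.81%), TTGCGCAA (0.164%), CATGTG (12.3%) and TCACGTGA (0.785%). The others were AGAACA followed after 3 free bases by TGTNC (0.113%) and TGACCT followed after 4 free bases by TGACC (0.0213%). Some of them overlap, since GAGGAAGT and GGAAGTG share bases with the first, and TGCTGAC, TCACGTGA and the first of the spaced motifs each hold a shorter motif of the list. The core AGGAAGT, which PU.1 binds, was found for C1qb and C1qc. TGCTGA was found for Cd5l, C1qb and Clec4f, and AGAACA, part of the site of GR, for C1qb, C1qc and Clec4f. TGACTCA was found for Cd68, GAGGAAGT for C1qc, GGAAGTG for C1qc and Vsig4, CATGTG for C1qb and C1qc, and the other 6 motifs in 0 of 7. A match describes letters and does not show a site. Cd5l and Marco are shown because they passed after CORT, and C1qb, which held 4 of the motifs, stands for the C1q group, since the C1qc window, which held 5, overlaps exons and C1qa had no entry. Capitals mark matches to any of these motifs on either strand, and the windows are chr3:87357631-87357880 on the plus strand for Cd5l, chr1:120505025-120505274 on the minus strand for Marco and chr4:136886201-136886450 on the minus strand for C1qb.
Cd5l: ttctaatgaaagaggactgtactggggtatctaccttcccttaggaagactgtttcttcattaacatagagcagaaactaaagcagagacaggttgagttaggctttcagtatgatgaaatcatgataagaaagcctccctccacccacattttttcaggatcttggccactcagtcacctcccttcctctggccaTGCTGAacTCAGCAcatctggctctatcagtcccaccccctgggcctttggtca
Marco: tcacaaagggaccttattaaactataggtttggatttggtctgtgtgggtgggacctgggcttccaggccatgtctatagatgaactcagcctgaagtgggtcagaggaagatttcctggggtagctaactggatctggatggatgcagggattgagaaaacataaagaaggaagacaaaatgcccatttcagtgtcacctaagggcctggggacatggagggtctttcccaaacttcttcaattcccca
C1qb: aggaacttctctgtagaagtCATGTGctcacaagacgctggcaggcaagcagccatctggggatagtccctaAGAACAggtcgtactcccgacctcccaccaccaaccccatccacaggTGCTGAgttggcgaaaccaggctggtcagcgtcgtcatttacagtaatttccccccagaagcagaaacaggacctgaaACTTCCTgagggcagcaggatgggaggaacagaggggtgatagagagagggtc
Cd5l held 2 matches to TGCTGA, 1 on each strand, and Marco held 0 matches to any of the motifs.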

How the data were processed

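Per the paper's methods the authors checked reads with FastQC, quantified them with Salmon and summed them to genes with tximport, and they deposited estimated counts per gene. The submitters' processing notes name the build mm10, and the transcript annotation is not given in the sources used here. The deposited table of VST values (6 columns) was not used. Of 27654 gene IDs 27244 were matched to a symbol, and the unmatched IDs held 0.107% of counts. Members and lists were chosen with earlier results of these data known.

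Counts were rounded, filtered with filterByExpr (minimum count 10), scaled by TMM and tested with edgeR 4.0.16 in R 4.3.3 (quasi-likelihood F test, Benjamini-Hochberg over all genes tested, threshold 0.05). Each comparison of 2 groups was fitted on its own libraries, and the genotype effect over the day with time point as a factor. Rhythms were tested with JTK_CYCLE (period 24 h, 6 phase offsets with Bonferroni correction) on VST values from DESeq2 1.42.0. Correlations used log2 CPM with a prior count of 2. Alternatives were DESeq2, no filter, RLE scaling, total counts, a replicate block, 1 fit of all groups of a diet, limma 3.58.1 on VST values for genotype by time, an F test of time, and leaving out each library, replicate number or time point in turn. The diet by time interaction and the fits without the libraries that held pancreas transcripts were added after the data were seen.

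Named were all members, Nr3c1, genes of the Kupffer cell identity and shared myeloid lists that passed, up to 4 genes of other lists with the most abundant first, and the 10 genes outside the members that correlate most with them. Lyve1, Oit3, C2, C3, Csf1, Il34 and the other list genes named outside that order were chosen after their values were seen. The 102 pairs of libraries within groups held 0 identical pairs. Gene coordinates and exon lengths came from GENCODE M21 (GRCm38) and promoters from RefSeq. The tests were tested on simulated data. The report gives the range of library depth for each diet and genotype of the time series, over all time points, and for each group of the other experiments.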

Additional observations from a re-analysis of the deposited data

Results flagged for a closer look

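The daily pattern of 5 of the 10 genes differed between the diets in WT livers, against 40.1% of all genes, a share near that of the members, by a test of the diet by time point interaction in edgeR with Benjamini-Hochberg adjustment that was added after the data were seen. The adjusted p was 0.0105 for Marco, 0.0108 for Vsig4, 0.0308 for C1qc, 0.0371 for Cd68 and 0.0478 for Cd5l. Each diet was its own set of libraries, so a change of daily pattern with diet and one with library set cannot be told apart. In the 6 groups of 4 livers, all on control diet, 60 checks of the 10 genes found 0 libraries far from the others of their group. The groups on caloric restriction held 3 livers and were not checked in this way, and single WT livers stood high there, with a summed level of the 10 genes of 419 CPM against 180 and 251 at ZT8 and of 351 CPM against 173 and 168 at ZT4.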

How the results depend on the processing

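Of 823 values under other settings, for 70 results, 730 were rated the same and 93 were not. A value of a single gene was the same if it kept its direction and its side of the threshold. A count was the same if it stayed within 1.5 times the main count. A median log2 fold change was the same if it moved by less than the median SE of the members, whatever its sign. Turns of sign were followed for single genes only, where 15 values turned. The count of 1 member in the diet experiment was 0 without a filter, 0 with RLE scaling and 0 with a replicate block, and 0 to 2 with a library left out. The count of 7 at ZT12 on caloric restriction was 3 with a replicate block (Clec4f, Cd5l and Csf1r) and 4 to 7 with a library left out. The labels do not say whether livers of the same replicate number were handled together. In 0 of 14 comparisons did all livers of the same number correlate above 0.1, which does not settle whether the numbers mark a block. On control diet at ZT0 the count of 0 was 1 (Marco) by DESeq2 and 1 in the fit of all 12 groups. Over the day on caloric restriction it was 1 (Vsig4) by total counts and 4 without ZT8. After CORT the count of 2 was 1 by total counts and 0 to 2 with a library left out. Rhythm in WT on caloric restriction was called for 0 genes by JTK_CYCLE and for 8 by the F test, and leaving out a replicate number gave 6 to 10 in WT and 0 to 5 in GRLKO on control diet. In the diet experiment the log2 fold change with a library left out ran from -0.287 to 0.0347 for Clec4f, -0.105 to 0.162 for Csf1r, -0.0915 to 0.210 for C1qa, -0.250 to 0.0131 for C1qb and -0.0807 to 0.195 for C1qc. For C1qa it was -0.0823 by total counts and -0.536 with the time series libraries, and for C1qc -0.0944 and -0.480. After CORT Csf1r ran from -0.0591 to 0.309. Leaving out libraries leaves fewer samples, and for the other settings the cause was not tested. Depth limits Marco most, with 4 counts in its lowest library.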
